A study of Mus musculus with 8 samples.

Results

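The genes described here are 8 of the 27179 genes in a table of tumor RNA sequencing, chosen by name: *H2-Aa*, *H2-Ab1*, *H2-Eb1*, *H2-DMa*, *H2-DMb1*, *H2-Oa*, *Cd74* and *Ciita*. The tumors were C26 colon carcinomas grown in CD2F1 male mice and taken once the mice had lost more than 15% of their body weight. In 4 of them (scr tumors) the implanted cells were cxC26 scr, cachexia-inducing C26 cells with a scrambled guide RNA. In the other 4 (KO s1 tumors) they were cxC26 IL-6 KO s1, a subclone whose interleukin-6 gene had been disrupted with CRISPR/Cas9. The mice themselves had not been modified, so host cells in every tumor kept an intact *Il6*. The KO s1 group stands for 1 clone, and the study injected more knockout cells and collected their tumors later, so that genotype, clone, inoculum and tumor age cannot be told apart. The comparison asks how the loss of tumor-derived IL-6 went with the expression of these genes in the whole tumor, host cells included.

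MHC class II molecules hold peptides from proteins taken up by the cell and show them to CD4 T cells. The groove is built from an alpha and a beta chain, which in the mouse are H2-Aa with H2-Ab1 and H2-Ea with H2-Eb1. Cd74, the invariant chain, fills the groove until proteases trim it, H2-DMa and H2-DMb1 exchange the remaining fragment for a peptide, and H2-Oa restrains that exchange. Ciita is the coactivator that switches the class II promoters on. Macrophages, dendritic cells and B cells make class II molecules, and interferon gamma can induce *Ciita* in many other cells, with Irf1 among the factors it uses.

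The class II promoters share an X box, which binds the RFX complex, and a Y box, which binds NF-Y, and Ciita is recruited to the proteins assembled there. RefSeq promoter windows on GRCm38.p6, from 250 bases before to 50 bases after the start of transcription, were found for 5 of the 8 genes (*H2-Aa*, *H2-Eb1*, *H2-DMa*, *H2-DMb1* and *H2-Oa*). They were searched on both strands for the letters GNAAC, as in the X box, followed after 20 to 35 bases by TGATTGG, as in the Y box. These letters and this spacing were written down after the class II promoters had been read. The pair was found in 4 of the 5 genes, and it was found in 0.426% of all 32851 promoter windows. TGATTGG alone was found in 7.82% and GNAAC alone in 84.8% of the windows. The stretches that hold the pair are shown so that the boxes described above can be seen in these genes, with both motifs in capitals and 10 bases of flank on either side.
*H2-Aa* (chr17:34287857-34287914, minus strand): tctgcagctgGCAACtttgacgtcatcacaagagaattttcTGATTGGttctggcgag
*H2-Eb1* (chr17:34305766-34305822, plus strand): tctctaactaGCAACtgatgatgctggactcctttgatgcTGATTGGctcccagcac
*H2-DMb1* (chr17:34153087-34153144, plus strand): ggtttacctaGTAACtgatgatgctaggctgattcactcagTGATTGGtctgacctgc
*H2-Oa* (chr17:34092293-34092350, plus strand): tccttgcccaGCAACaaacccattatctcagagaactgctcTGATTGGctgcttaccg
The 2 motifs were 25 or 26 bases apart in all 4 stretches, and the Y box letters began 45 to 63 bases before the start of transcription. The pair was not found in either of the 2 windows of *H2-DMa*. No expression value was used in this search.

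Expression is given as log2 CPM, which scales a gene's reads to the size of its library, and whole read counts were recovered from these values. The totals were between 14158989 and 17048062 reads on genes per tumor and overlapped between the groups, and 1 read is a large step only for the rarest of these genes. The targeted gene *Il6* had 326 to 438 reads in the scr tumors and 56 to 86 reads in the KO s1 tumors. Of 6 epithelial markers 2 passed the filter used for testing and both were higher in the KO s1 tumors. *Krt18* had 21 to 30 reads in the scr tumors and 140 to 282 in the KO s1 tumors, and rose by 3.20 (SE 0.23, adjusted p = 3.02e-06, limma). *Cdh1* had 17 to 37 reads against 45 to 87, and rose by 1.46 (SE 0.30, adjusted p = 0.00251, limma). *Epcam* had 14 reads or fewer in each tumor and *Cldn4* had 0 in all 8. The first KO s1 tumor stood apart from all others in the genes described here, and the counts, and the estimates that moved by over 1.5 times without it, are therefore given with and without it.

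The 7 genes that passed the filter were detected in every tumor. In the first KO s1 tumor 6 of the 7 were 5.98- to 10.4-fold above the next highest of the 8 tumors. The other 3 KO s1 tumors lay within or close to the range of the scr tumors. The difference between the 4 KO s1 and the 4 scr tumors passed the test for none of the 7. *H2-DMa* was the only one whose groups did not overlap, and 17.8% of all tested genes did not overlap in the same direction. *H2-Oa* was at the edge of detection in both groups.

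**Figure D1:**
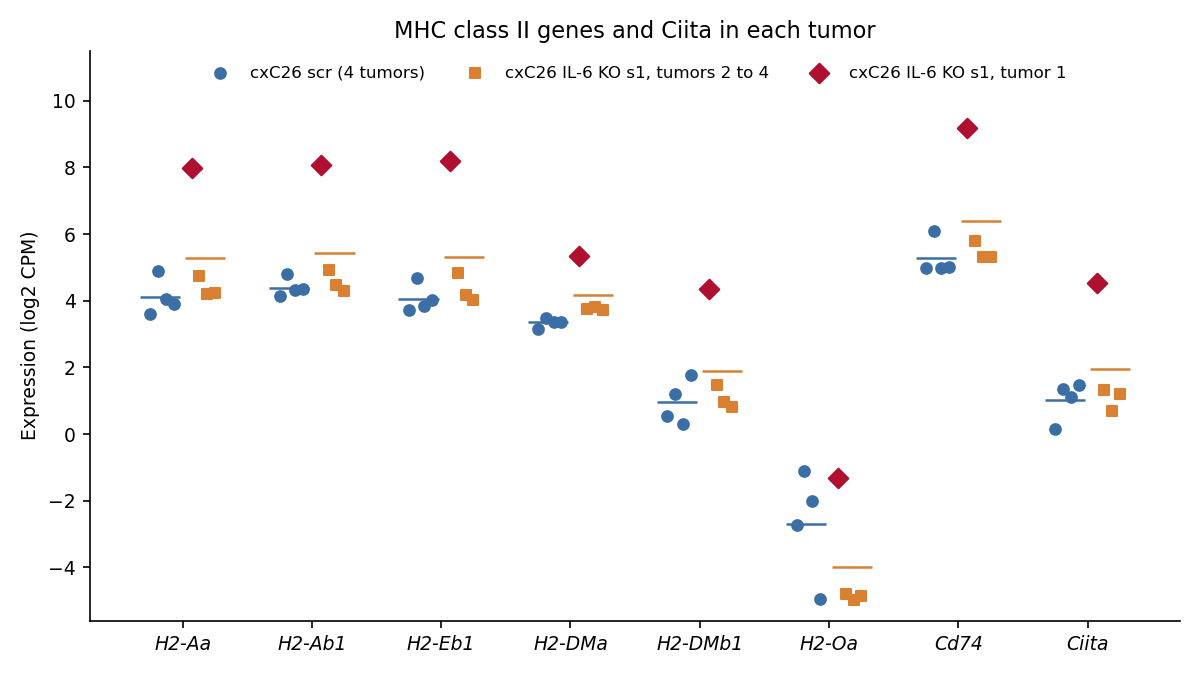
Expression of the 8 genes in each tumor, in log2 CPM on the vertical axis, with circles for scr tumors, squares for KO s1 tumors 2 to 4, a diamond for KO s1 tumor 1 and short lines for group means (n = 4 each). The diamond lies far above all other points for *H2-Aa*, *H2-Ab1*, *H2-Eb1*, *H2-DMb1*, *Cd74* and *Ciita*, lies less far above them for *H2-DMa*, and lies within the scr range for *H2-Oa*.

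*H2-Aa* (chromosome 17, 34282744 to 34287823 on GRCm38.p6) encodes the alpha chain of the A molecule. It had 200, 479, 235 and 230 reads in scr tumors 1 to 4 and 4113, 370, 288 and 272 reads in KO s1 tumors 1 to 4. On the log2 CPM scale these were 3.59, 4.89, 4.05 and 3.90 against 7.98, 4.74, 4.19 and 4.23. A single tumor was high, and the remaining 7 overlapped, with the lowest and the highest of them both in the scr group. The means were 4.11 ± 0.56 and 5.29 ± 1.81 log2 CPM (SD, n = 4 each), a log2 fold change of 1.18 (SE 0.69, adjusted p = 0.193, limma with Benjamini-Hochberg adjustment). Without the first KO s1 tumor the log2 fold change was 0.28 (SE 0.26, adjusted p = 0.409, limma).

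*H2-Ab1* (chromosome 17, 34263227 to 34269418) encodes the beta chain that pairs with H2-Aa. Its read counts were 291, 448, 283 and 311 in the scr tumors and 4415, 416, 347 and 285 in the KO s1 tumors. The second scr and the second KO s1 tumor were the highest after the first KO s1 tumor, at 4.79 and 4.91 log2 CPM, and the remaining 5 lay between 4.13 and 4.46. The log2 fold change was 1.05 (SE 0.65, adjusted p = 0.224, limma) with all tumors and 0.16 (SE 0.18, adjusted p = 0.495, limma) without that tumor.

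*H2-Eb1* (chromosome 17, 34305867 to 34316674), the beta chain of the E molecule, had the largest excess in a single tumor among the 7 tested genes. It had 220, 415, 203 and 247 reads in the scr tumors and 4755, 391, 286 and 237 reads in the KO s1 tumors. The first of these tumors, at 8.19 log2 CPM, was 16.1-fold above the median of the other 3. The log2 fold change was 1.25 (SE 0.72, adjusted p = 0.193, limma), and 0.28 (SE 0.24, adjusted p = 0.366, limma) without it.

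*Cd74* (chromosome 18, 60803849 to 60812652), the invariant chain, had the most reads of the 8 genes. It had 524, 1102, 451 and 497 reads in the scr tumors and 9395, 767, 628 and 570 reads in the KO s1 tumors. Within the scr group the second tumor stood out, at 6.09 log2 CPM against 4.97, 4.99 and 5.01, and it was above 3 of the 4 KO s1 tumors. The log2 fold change was 1.13 (SE 0.70, adjusted p = 0.222, limma) and fell to 0.20 (SE 0.24, adjusted p = 0.539, limma) without the first KO s1 tumor.

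*H2-DMb1* (chromosome 17, 34153191 to 34160229) encodes the beta chain of the peptide exchange factor. It had 24, 37, 17 and 52 reads in the scr tumors and 331, 38, 30 and 25 reads in the KO s1 tumors. Apart from the 331 reads, the groups overlapped, with the lowest and the highest of the other 7 tumors in the scr group. The log2 fold change was 0.94 (SE 0.67, adjusted p = 0.285, limma), or 0.12 (SE 0.36, adjusted p = 0.816, limma) without that tumor. In the GENCODE M21 transcripts 22.6% of the 50-base windows of *H2-DMb1* also occur in its neighbor *H2-DMb2*, so reads may have been exchanged or lost between the pair.

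*H2-DMa* (chromosome 17, 34119693 to 34139101), the alpha chain that pairs with H2-DMb1, followed another pattern. It had 149, 180, 147 and 159 reads in the scr tumors and 661, 185, 222 and 190 reads in the KO s1 tumors. These were 3.16, 3.48, 3.37 and 3.37 log2 CPM against 5.35, 3.74, 3.82 and 3.72. All 4 KO s1 tumors were above all 4 scr tumors. The log2 fold change was 0.81 (SE 0.31, adjusted p = 0.0551, limma) and missed the threshold. Without the first KO s1 tumor the difference was smaller and less variable, 0.41 (SE 0.14, adjusted p = 0.0315, limma), and passed it. It also passed without the second or the fourth KO s1 tumor (adjusted p = 0.0432 and 0.0405, limma). *H2-DMa* shares 360 exonic bases, 10.4% of its exons, with *Brd2* on the opposite strand. *Brd2* was between 8.25 and 8.50 log2 CPM in all 8 tumors, and the strand setting of the counting is not given in the sources used here, so the *H2-DMa* counts are uncertain by the reads of this stretch.

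*Ciita* (chromosome 16, 10480014 to 10531064), the coactivator, was counted at a low level in most tumors. It had 18, 41, 30 and 42 reads in the scr tumors and 375, 34, 25 and 33 reads in the KO s1 tumors. Only the first KO s1 tumor was outside the scr range, at 4.53 log2 CPM against 0.15 to 1.47. The log2 fold change was 0.92 (SE 0.69, adjusted p = 0.311, limma), and without that tumor it was 0.05 (SE 0.35, adjusted p = 0.915, limma). The *Ciita* gene shares 329 exonic bases, 3.45% of its exons, with *Dexi* on the opposite strand.

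*H2-Oa* (chromosome 17, 34092379 to 34095234), a subunit of the inhibitor of peptide exchange, had 2, 7, 3 and 0 reads in the scr tumors and 6, 0, 0 and 0 reads in the KO s1 tumors. It did not reach the filter of 1 CPM in 4 tumors. The difference of the mean log2 CPM, KO s1 minus scr, was -1.28, with p = 0.343 in a two-sided exact permutation test over all 70 splits of the 8 tumors. At these depths a difference in *H2-Oa* was not detectable. The 6 reads in the first KO s1 tumor did not exceed the 7 reads of a scr tumor.

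Of the 7 tested genes 0 were called at an adjusted p under 0.05 by limma, against 39.8% of all 13262 tested genes called in either direction (19.1% higher and 20.7% lower), and 1 had an unadjusted p under 0.05. With limma-voom weights on the recovered reads the number called was also 0. Without the first KO s1 tumor 1 of the 7 was called, against 38.2% of all tested genes in either direction (18.3% higher and 19.9% lower). The median log2 fold change of the 7 was 1.05 with that tumor and 0.20 without it, and that of all tested genes was -0.003 and -0.001. The standard errors of the 6 genes other than *H2-DMa* were 0.65 to 0.72 with all tumors and 0.18 to 0.36 without the first KO s1 tumor.

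**Figure D2:**
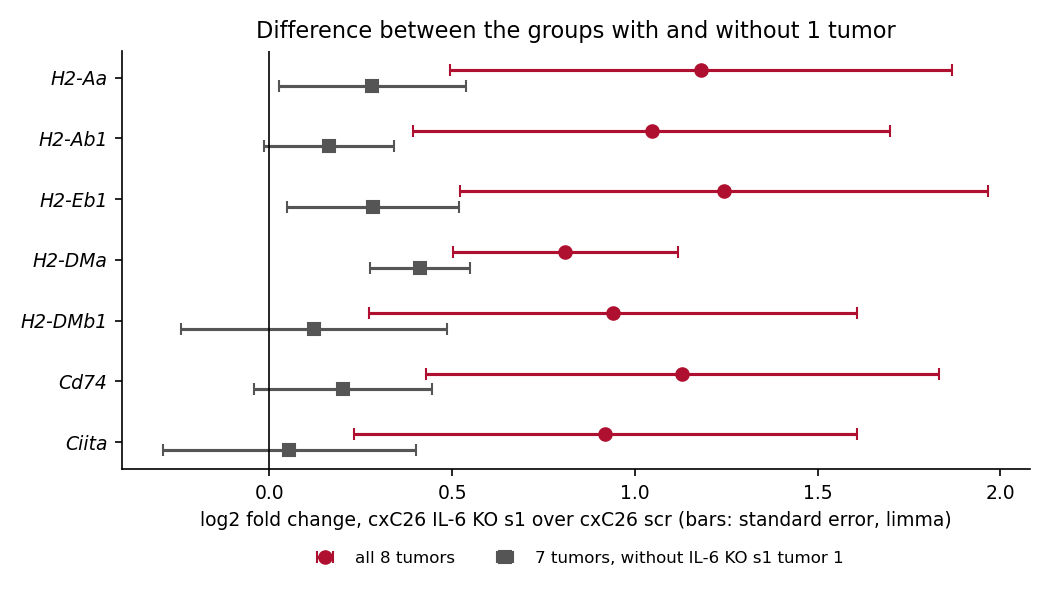
The horizontal axis gives the log2 fold change of KO s1 over scr tumors for the 7 tested genes, with bars for the standard error from limma, red circles for all 8 tumors and grey squares for 7 tumors without the first KO s1 tumor. All 7 estimates are lower without that tumor, at 0.05 to 0.41 against 0.81 to 1.25, and *H2-DMa* keeps the largest share of its estimate.

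Per kilobase of exon, as RPKM with GENCODE M21 exon lengths, the median levels in the scr tumors were 19.1 for *Cd74*, 7.81 for *H2-Ab1*, 7.80 for *H2-Eb1*, 4.14 for *H2-Aa*, 3.00 for *H2-DMa*, 1.11 for *H2-DMb1* and 0.243 for *Ciita*. The ranges over the 4 tumors overlapped between *H2-Ab1*, *H2-Eb1* and *H2-Aa*, and between *H2-Aa* and *H2-DMa*. Within each scr tumor *H2-Ab1* was above *H2-Aa* and *H2-Aa* was above *H2-DMa*, while *H2-Ab1* and *H2-Eb1* changed order between tumors. The lengths join all annotated exons of a gene, 3798 bases for *H2-Aa* and 2568 for *H2-Ab1*, and the order of these genes depends on them. By reads *H2-Aa* was above *H2-Ab1* in the second scr tumor (479 against 448) and below it in the other scr tumors. *Cd74*, at 18.7 to 40.6, was above the other 6 in every scr tumor. In the first KO s1 tumor *Cd74* reached 344, *H2-Eb1* 151, *H2-Ab1* 106, *H2-Aa* 66.7 and *Ciita* 2.42, while *H2-DMa* and *H2-DMb1* were at 11.8 and 12.1.

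The proportions of the groove chains and the invariant chain varied by less than 1 on the log2 scale over the 8 tumors in the 3 pairs computed. The log2 CPM of *Cd74* minus that of *H2-Aa* was 0.94 to 1.39 over all 8 tumors and 1.19 in the first KO s1 tumor. *H2-Aa* minus *H2-Ab1* was -0.54 to 0.10, and -0.10 in that tumor. *H2-Ea* minus *H2-Eb1* was more variable, at -0.11 to 0.78, and 0.14 in that tumor. *Cd74* minus *Ciita* was 3.55 to 4.83, and 4.65 in that tumor, where *Cd74* and *Ciita* were 14.5-fold and 9.99-fold above the median of the other 3 KO s1 tumors. *H2-DMa* did not keep the proportion: *Cd74* minus *H2-DMa* was 3.83 in the first KO s1 tumor and 1.498 to 2.61 in the other 7. The difference of *H2-DMa* and *H2-DMb1*, the paired chains, was 1.00 there and 1.60 to 3.08 in the other 7.

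To place the excess of this tumor among all genes, the value of each tested gene in the first KO s1 tumor was set against the highest of the other 7 tumors. It was at least 4-fold above it for 44 genes, 0.332% of those tested, and 6 of the 7 tested class II genes and *Ciita* were among them. *H2-Eb1* ranked 8, *H2-Ab1* 12, *H2-Aa* 15, *Cd74* 16, *Ciita* 17 and *H2-DMb1* 23. *H2-DMa* ranked 74, at 2.89-fold. The genes of rank 1 to 7 were *Cxcl9*, *Gbp8*, *Iigp1*, *Gbp2b*, *Ubd*, *Gbp4* and *Gbp2*. In each of the other 7 tumors 0 or 1 genes stood out in this way. With 1 tumor there is no replicate for this comparison, and it carries no test.

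**Figure D3:**
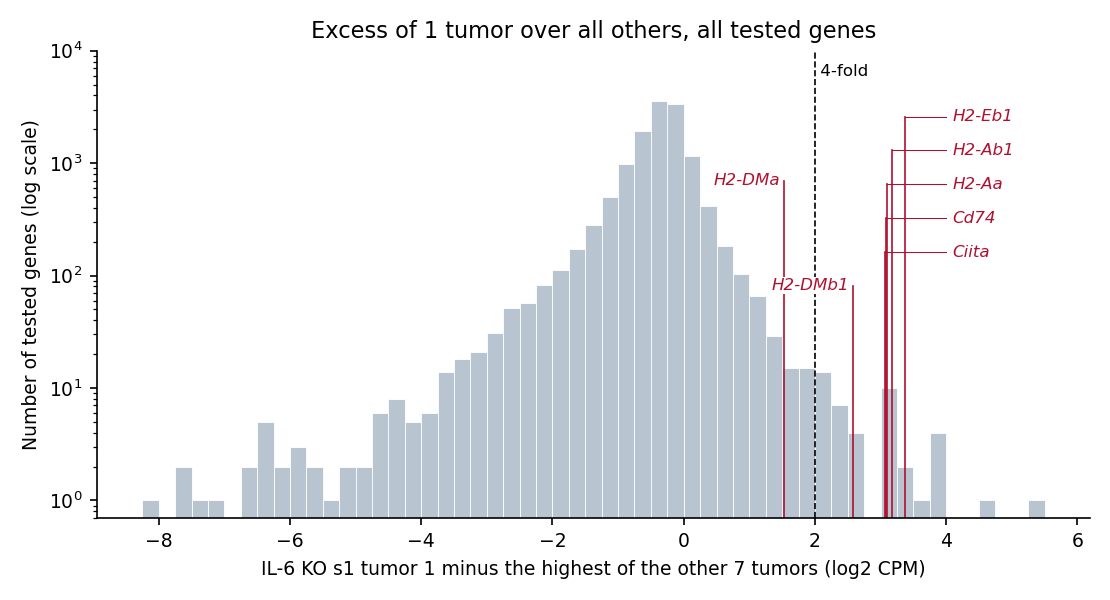
Number of tested genes, on a log scale, by the log2 CPM of the first KO s1 tumor minus the highest of the other 7 tumors, with red lines for the 7 tested class II genes and *Ciita* and a dashed line at 4-fold. The 6 lines to the right of the dashed line run from 2.58 to 3.37, where few other genes lie, and *H2-DMa* is to its left at 1.53.

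The other class II genes were then examined. *H2-Ea* (34341952 to 34344645), the alpha chain of the E molecule, is annotated as a transcribed pseudogene in the C57BL/6 reference, whose H-2b haplotype does not make the chain, whereas C26 cells and CD2F1 mice are of the H-2d haplotype, which does. It had 204, 589, 348 and 388 reads in the scr tumors and 5255, 365, 317 and 346 reads in the KO s1 tumors. *H2-DMb2*, a second beta chain for the exchange factor, had 53 to 74 reads in the scr tumors and 342, 44, 56 and 61 reads in the KO s1 tumors. Both were high in the same single tumor as *H2-Aa* and not called, with log2 fold changes of 0.97 (SE 0.73, adjusted p = 0.308, limma) and 0.51 (SE 0.49, adjusted p = 0.433, limma). Without that tumor these were 0.03 (SE 0.28, adjusted p = 0.953, limma) and -0.13 (SE 0.21, adjusted p = 0.666, limma). *H2-Ob*, the partner of *H2-Oa*, was below the filter, with 1, 4, 6 and 0 reads against 27, 7, 4 and 7. *H2-Eb2* had 0 or 1 reads in every tumor. Reads of these polymorphic genes were thus aligned to a genome of another haplotype, and the effect of this on their counts was not tested.

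The excess in the first KO s1 tumor was not shared by all genes of the class II region on chromosome 17. Among the 40 tested genes within 400 kb of the midpoint of *H2-Ab1*, the first KO s1 tumor was above the median of the other 3 by 1.60 to 4.01 log2 CPM for 7 class II genes and by 0.73 to 2.28 for 7 class I genes and genes of the class I pathway. For the 26 remaining genes the difference was -0.86 to 0.62, with a median of 0.11. Of 10 neighboring genes unrelated to antigen presentation (*Brd2* and *Rps18* among them) 1 was called higher and 2 were called lower between the groups by limma, and 1 and 1 without that tumor. Over all tested genes 19.1% were higher and 20.7% lower, or 18.3% and 19.9% without that tumor. The call of *Rxrb*, 1 of the 2 lower genes (adjusted p = 0.0468, limma), was lost under quantile normalization (0.129) and with limma-voom weights (0.0519), among other alternatives. The median log2 fold change of these 10 was -0.05.

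**Figure D4:**
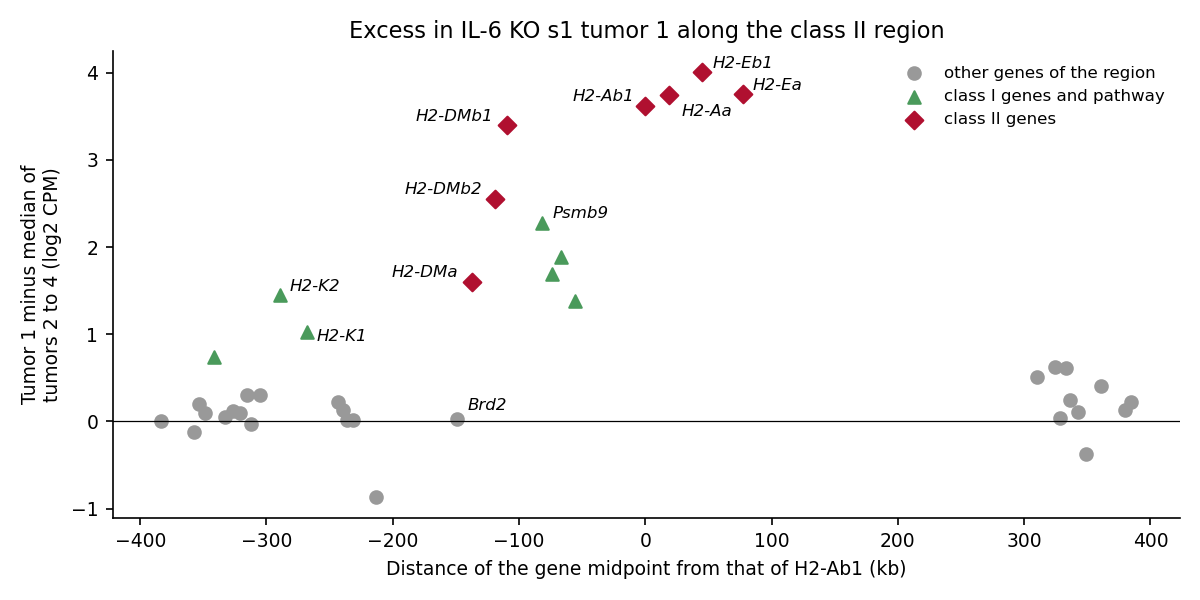
Tested genes around *H2-Ab1*, by the distance of their midpoint from that of *H2-Ab1* in kb (horizontal) and by the log2 CPM of the first KO s1 tumor minus the median of the other 3 (vertical). Class II genes (diamonds) lie at 1.60 to 4.01 and the unrelated genes on either side of the class II cluster (circles) at -0.86 to 0.62.

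The proteins that carry Ciita on the promoter were next. Of 10 genes of this complex 0 were higher and 4 were lower in the KO s1 tumors, and without the first of them 3 were higher and 4 were lower. Of all tested genes 19.1% were higher and 20.7% lower, or 18.3% and 19.9% without that tumor, and the counts of the lists that follow are to be set beside these shares. Their median log2 fold change was -0.13. *Rfx5*, a subunit of the X box factor, was at 3.96 to 4.22 log2 CPM in the scr tumors and at 4.11 to 4.39 in the KO s1 tumors (log2 fold change 0.14, SE 0.11, adjusted p = 0.344, limma, and 0.08 without the first KO s1 tumor). *Nfya*, a subunit of the Y box factor, fell by 0.30 on the log2 scale (SE 0.07, adjusted p = 0.00801, limma). *Creb1* fell by 0.40 (SE 0.10, adjusted p = 0.00686, limma) and the acetyltransferase gene *Ep300* by 0.33 (SE 0.09, adjusted p = 0.016, limma), the last of which missed the threshold without the third scr tumor (adjusted p = 0.052, limma). Others rose: without the first KO s1 tumor the 3 called higher were *Kat2b* (0.32, adjusted p = 0.0179, limma), *Nfyb* (0.34, adjusted p = 0.0277, limma) and *Rfxap* (0.37, adjusted p = 0.0415, limma). With all tumors these rose by 0.25, 0.28 and 0.32 and missed the threshold (adjusted p = 0.0551, 0.0566 and 0.0579, limma). In the first KO s1 tumor *Nfya* was at 6.07 and *Ep300* at 6.42 log2 CPM, inside the range of the other 3, and *Creb1* was at 6.16, just below it.

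Among 13 tested genes that regulate *Ciita* or carry the interferon gamma signal, 4 were higher and 1 was lower, or 4 and 2 without the first KO s1 tumor. *Ifng*, encoding interferon gamma itself, had 0 reads in all 4 scr tumors and 33, 0, 1 and 2 reads in the KO s1 tumors, so it was visible almost only in the tumor in which the class II genes were high. *Irf1* was at 7.43 log2 CPM in the first and at 5.97, 5.87 and 5.47 in the other 3 KO s1 tumors, beside 5.46 to 5.72 in the scr tumors (log2 fold change 0.55, SE 0.32, adjusted p = 0.193, limma, and 0.13 without that tumor). For *Irf1* 3 of the 4 KO s1 tumors were above the scr range, the first by far the most, whereas for *Ciita* 1 was. *Spi1* and *Irf8*, myeloid factors that act on *Ciita* in macrophages and dendritic cells, were chosen for mention after their values had been seen. *Spi1* rose by 1.48 (SE 0.18, adjusted p = 9.17e-05, limma) and *Irf8* by 0.81 (SE 0.27, adjusted p = 0.0333, limma), or by 0.50 (adjusted p = 0.041, limma) without the first KO s1 tumor. The call of *Irf8* was lost without the first or the third scr tumor (adjusted p = 0.0625 and 0.0988, limma), without a filter (0.107) and without a variance trend (0.0635).

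Of 7 genes that prepare the peptide and the invariant chain 4 were higher and 0 were lower, or 3 and 0 without the first KO s1 tumor, and the median log2 fold change was 0.24. *Ctss*, the protease that completes the trimming of Cd74, was at 6.60, 6.99, 7.04 and 6.82 log2 CPM in the scr tumors and at 8.86, 7.63, 7.91 and 7.88 in the KO s1 tumors. It rose by 1.21 (SE 0.22, adjusted p = 0.00116, limma). *Ifi30*, a thiol reductase of the same compartment, had 217 to 360 reads in the scr tumors and 1230, 669, 775 and 594 reads in the KO s1 tumors, and rose by 1.62 (SE 0.19, adjusted p = 7.82e-05, limma). All 4 KO s1 tumors were above all scr tumors for both genes. *Lgmn*, an asparaginyl protease, rose by 0.51 (SE 0.10, adjusted p = 0.00208, limma). *Ctsl*, *Ctsb* and *Ctsd*, the most abundant of the list, were not called, with log2 fold changes of -0.33, 0.15 and 0.19, or -0.25, 0.06 and 0.19 without the first KO s1 tumor. The log2 CPM of *H2-Aa* minus that of *Ifi30* was -1.43 to -0.85 log2 CPM in tumors 2 to 4, 1.74 in tumor 1 and -0.50 to 0.41 in the scr tumors, so tumors 2 to 4 were below the scr range. *Cd74* minus *Ctss* was -2.60 to -1.84 in tumors 2 to 4, 0.32 in tumor 1 and -2.05 to -0.90 in the scr tumors, and these ranges overlapped.

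*Marchf1*, a ubiquitin ligase that removes class II molecules from the surface, had 77 to 117 reads in the scr tumors and 341, 109, 204 and 216 reads in the KO s1 tumors, and rose by 1.02 (SE 0.25, adjusted p = 0.0077, limma). Its relative *Marchf8* rose by 0.33 (SE 0.09, adjusted p = 0.0137, limma). *Cd83*, which opposes Marchf1, had 136 reads in the first KO s1 tumor and 23 to 53 in the other 7 tumors, and was not called (log2 fold change 0.92, SE 0.41, adjusted p = 0.0929, limma, and 0.51 without that tumor). Of the 5 tested genes of MIF, a ligand of Cd74, and its receptors, 2 were higher and 0 were lower, or 1 and 0 without the first KO s1 tumor. *Mif* itself differed by -0.02 (SE 0.21, adjusted p = 0.954, limma), *Cd44* by 0.11 and *Cxcr4* by 0.36 (-0.14, 0.12 and 0.06 without that tumor), and *Ackr3* rose by 0.77 (SE 0.11, adjusted p = 0.000289, limma).

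Most costimulatory genes and receptors that read class II had few reads. Of 5 tested, 1 was higher and 0 were lower, with and without the first KO s1 tumor. That gene was *Cd4*, the coreceptor for class II, with 24, 22, 8 and 14 reads against 42, 37, 38 and 30 (log2 fold change 1.25, SE 0.32, adjusted p = 0.00953, limma). *Cd86*, a ligand of Cd28, had 267 reads in the first KO s1 tumor and 62 to 120 in the other 7, and *Lag3*, an inhibitory receptor for class II, had 67 reads there and 14 to 30 in the others. *Cd80* was at 4.65, 4.68, 4.92 and 5.51 log2 CPM in the KO s1 tumors, the first 3 of them below every scr tumor (5.08 to 5.63), and was not called (-0.32, SE 0.19, adjusted p = 0.19, limma). Without the fourth KO s1 tumor it was called lower (-0.52, adjusted p = 0.0178, limma).

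Class I presentation is the closest pathway for comparison, since it is also induced by interferon gamma. Of 9 genes 8 were higher and 0 were lower, with and without the first KO s1 tumor, and the median log2 fold change was 1.195 and 0.86. *B2m* was at 9.40 to 9.63 log2 CPM in the scr tumors and at 10.84, 10.08, 10.30 and 10.14 in the KO s1 tumors. It rose by 0.81 (SE 0.15, adjusted p = 0.00161, limma), *H2-D1* by 0.97 (SE 0.19, adjusted p = 0.00217, limma) and *Tapbp* by 1.26 (SE 0.18, adjusted p = 3.00e-04, limma). The exception was *Nlrc5*, the relative of Ciita that acts on class I promoters. It was at 6.63 log2 CPM in the first KO s1 tumor and at 4.58 to 5.23 in the other 3, against 4.77 to 5.25 in the scr tumors (log2 fold change 0.34, SE 0.33, adjusted p = 0.442, limma, and -0.08 without the first KO s1 tumor). Of 11 tested genes induced by interferon gamma, 9 were higher and 0 were lower, and 8 were higher without the first KO s1 tumor. Among them *Gbp6* was below 1 CPM in every scr tumor and passed the filter only through the KO s1 tumors, so it could only come out higher. *Gbp2* had 48 to 118 reads in the scr tumors and 3999, 210, 261 and 305 reads in the KO s1 tumors, and rose by 2.83 (SE 0.72, adjusted p = 0.00872, limma), although the call was lost with limma-voom weights (adjusted p = 0.0526). Without the first KO s1 tumor the rise was 1.88 (SE 0.24, adjusted p = 1.04e-04, limma). *Cd274*, encoding PD-L1, was not called (0.55, SE 0.44, adjusted p = 0.351, limma, and -0.04 without the first KO s1 tumor) and was high in that tumor only. Over the 84 genes of these pathway lists, 75 were tested, of which 31 were higher and 7 were lower, beside 19.1% higher and 20.7% lower over all tested genes, and the counts were the same without the first KO s1 tumor.

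**Figure D5:**
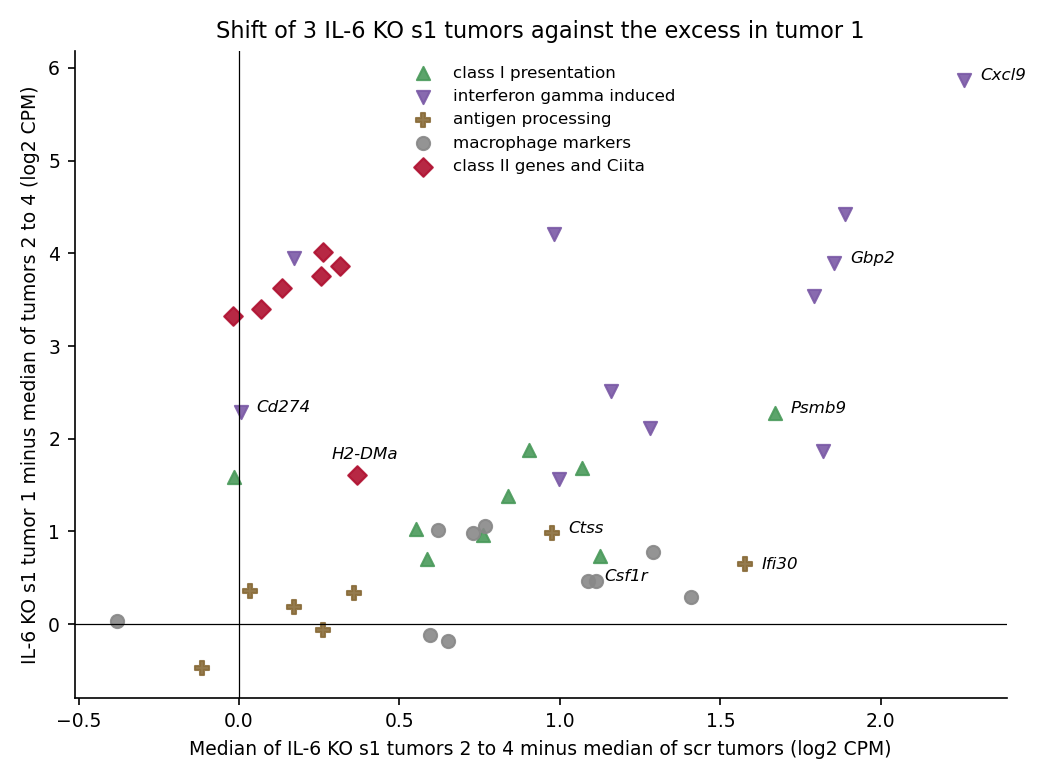
Each point is a tested gene, placed by the median of KO s1 tumors 2 to 4 minus the median of the scr tumors (horizontal) and by KO s1 tumor 1 minus the median of tumors 2 to 4 (vertical), both in log2 CPM. The class II genes and *Ciita* (diamonds) lie between -0.02 and 0.37 on the horizontal axis and reach 4.01 on the vertical axis, while *Ifi30* and *Csf1r* lie to the right and low, and *Cxcl9* and *Gbp2* lie to the right and high.

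Markers of cells that carry class II moved in both directions. In bulk RNA fewer cells of a type and less RNA per cell cannot be told apart. Of 10 macrophage markers 9 were higher and 1 was lower, with and without the first KO s1 tumor, and their summed reads were 10565 to 13137 in the scr tumors, 29702 in the first KO s1 tumor and 15350 to 20389 in the other 3. *Csf1r* and *Adgre1*, chosen for mention after their values had been seen, rose by 1.25 (SE 0.12, adjusted p = 2.09e-05, limma) and 1.50 (SE 0.16, adjusted p = 5.36e-05, limma). *Cd74* did not follow *Csf1r*: the log2 CPM of *Cd74* minus that of *Csf1r* was -2.001 to -1.15 in KO s1 tumors 2 to 4, -1.05 to 0.11 in the scr tumors and 1.62 in the first KO s1 tumor. Of 8 markers of conventional dendritic cells 2 passed the filter and both were lower. *Zbtb46* fell by 2.42 (SE 0.20, adjusted p = 6.95e-06, limma) and *Itgax* by 1.89 (SE 0.39, adjusted p = 0.00259, limma), and the summed reads of the list were 1126 to 1798 in the scr tumors, 1055 in the first KO s1 tumor and 258 to 397 in the other 3. Most of these reads were of *Itgax*, with 919 to 1603 in the scr tumors. The 6 markers below the filter went the other way, each with a higher mean log2 CPM in the KO s1 than in the scr tumors. These differences were not tested. For *Batf3* the mean of KO s1 tumors 2 to 4 was below the scr mean (-0.90 against -0.76 log2 CPM). *Flt3* had 1 to 11 reads in the scr tumors and 11, 14, 23 and 16 in the KO s1 tumors. *Xcr1* had 2 to 5 reads in the scr tumors and 17, 6, 9 and 10 in the KO s1 tumors, and *Ccr7* had 4 to 11 against 56, 23, 13 and 18. B cell markers were scarce: 1 of 8 passed the filter, the summed reads were 29 to 41 in the scr tumors, 153 in the first KO s1 tumor and 34 to 67 in the other 3, and *Pax5* had 0 or 1 reads in every tumor. Of 9 T cell markers 7 were tested and all 7 were higher, with summed reads of 38 to 85 in the scr tumors, 414 in the first KO s1 tumor and 192 to 272 in the other 3. *Cd3g*, *Cd2*, *Cd8a*, *Cd8b1* and *Trac* were below 1 CPM in every scr tumor and passed the filter only through the KO s1 tumors. These genes could therefore only come out higher, and their calls add no evidence to the count. The counts of dendritic cell, T cell and epithelial markers called were the same without the first KO s1 tumor. The part of any of these cells in the level of the class II genes was not tested.

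The mean log2 CPM of the 7 tested genes was 2.90, 3.79, 3.14 and 3.41 in the scr tumors and 6.81, 3.83, 3.37 and 3.37 in the KO s1 tumors. The tested genes whose values over the 8 tumors were most like this mean, by Pearson correlation, were *Cd274*, *Serpina3g*, *Lst1*, *H2-Ea*, *Gbp8*, *Pfkfb3*, *Rpl7l1*, *Ccr1*, *Fam234b* and *Ubd*, with r from 0.967 to 0.987. These correlations rest on the first KO s1 tumor. Over the other 7 tumors the 10 most alike genes were led by *Dnajc24*, *Nras* and *Rpl13-ps6* (r from 0.934 to 0.966), and 0 of the 10 were shared with the list over 8 tumors. The 10 most alike by Spearman correlation over 8 tumors also shared 0 genes with it. *H2-Ea* had r = 0.984 over 8 tumors and 0.822 over 7, and *Cd274* had 0.987 and 0.777. With so few tumors and so many genes, likeness of this size is a description only.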

How the data were processed

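RNA was sequenced from 8 tumors, 4 per group, which were grouped by the sample titles. Paired reads of 150 bp were trimmed (Trimmomatic), mapped to mm10 (Hisat2) and counted per gene (featureCounts) by the authors, who deposited log2 CPM from limma-voom. The submitters' processing notes also name bcl2fastq 2.17. Other versions, the annotation and whether counting used strand are not given in the sources used here. Whole reads were recovered by inverting the voom formula (offsets of 0.5 reads and 1 read), and 100% of the values came out whole within 0.05 reads. Totals of 14158989 to 17048062 reads limit the precision of low genes.

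The fit was made over the whole table in R 4.3.3 with limma 3.58.1 (lmFit, eBayes with trend) on the deposited log2 values of 13262 genes reaching 1 CPM in 4 or more tumors, without covariates. P-values were two-sided and adjusted by the Benjamini-Hochberg method over all tested genes, with a threshold of 0.05. The fit was also run on simulated counts of 4 against 4 tumors, with the same scatter for every gene and no outlying tumor. It called 39 of 40 genes changed by a log2 fold change of 1 and 44 of 47 changed by -1. Among 13312 tested genes 11 unchanged ones were called. The simulation cannot show how the fit behaves where 1 tumor is far above the others, as for most genes described here. A member below the filter was compared by an exact permutation test. Positions and promoter sequences came from RefSeq on GRCm38.p6, matched by gene identifier, and exon lengths, overlaps and transcripts from GENCODE M21. RPKM values were computed from recovered reads, effective library sizes and exon lengths. No promoter window was used for *H2-Ab1*, *Cd74* and *Ciita*.

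The members, the pathway lists and the marker lists were chosen with earlier results of these data known. Genes were named by rule: all members, up to 4 genes of highest expression per pathway list, direct regulators and partners of the members, the 10 genes most alike, and *Il6*. Not every gene this rule names is reported here. *Spi1*, *Irf8*, *Psmb9*, *Cxcl9*, *Csf1r*, *Adgre1*, *Ifngr1*, *Rfxap*, *Nfyb*, the genes of rank 1 to 7 beside the members, and the single markers cited for cell types were named after their values had been seen. So were the interferon gamma induced genes compared within the scr group, and *Gbp6*. The alternatives were no filter, a filter at a mean of 3 log2 CPM, quantile normalization, re-centring by the median, no trend, limma-voom weights, a pseudocount of 1 CPM, the replicate number as a block, and leaving out each tumor.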

Additional observations from a re-analysis of the deposited data

Results flagged for a closer look

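Groups of 4 tumors were searched for a tumor far from the other 3 of its group by Dixon's ratio at the 95% level. Of 124 groups of genes named in the report, 22 had such a tumor, and in 17 of them it was the first KO s1 tumor on the high side. The level alone gives about 6.2 by chance. Some of the genes were named after their values had been seen, and the mean of the members was counted beside its own genes. The 6.2 is therefore not a fair expectation for this set. Genes of 1 pathway also vary together, so the groups are not independent.

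Among the class II genes the first KO s1 tumor exceeded the rest of its group by this measure for *H2-Aa* (7.98 log2 CPM against 4.19 to 4.74), *H2-Ab1* (8.09 against 4.30 to 4.91), *H2-DMa* (5.35 against 3.72 to 3.82), *Cd74* (9.18 against 5.30 to 5.79), *Ciita* (4.53 against 0.69 to 1.32), *H2-Ea* (8.34 against 4.33 to 4.72) and *H2-DMb2* (4.40 against 1.68 to 2.09), and for the mean of the 7 tested members (6.81 against 3.37 to 3.83). *H2-Oa* was flagged too, at -1.32 log2 CPM (6 reads) in that tumor and at -4.98 to -4.79, which is 0 reads, in the other 3. At 0 reads the values differ only by library size, so this flag carries no weight. *H2-Eb1* and *H2-DMb1* were not far enough by this measure, since the other 3 tumors were more spread.

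The same tumor exceeded the rest for *Jak2* (7.43 log2 CPM against 6.66 to 6.72), *Cd83* (3.07 against 1.33 to 1.58), *H2-K1* (9.44 against 8.31 to 8.49), *Irgm1* (6.66 against 4.99 to 5.24), *Cd274* (5.97 against 3.52 to 3.71), *Igtp* (6.52 against 3.81 to 4.27), *Gbp2* (7.94 against 3.92 to 4.40) and *Psmb9* (6.39 against 3.97 to 4.28).

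In the scr group the second tumor was far above the others for *Cd74* (6.09 log2 CPM against 4.97 to 5.01), the third was below them for *Irf1* (5.46 against 5.67 to 5.72) and the first was below them for *Adgre1* (4.76 against 5.19 to 5.26). Among the KO s1 tumors the second was high for *Rps18* (7.93 against 7.45 to 7.49) and the third for *Il6* (2.46 against 1.99 to 2.04).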

How the results depend on the processing

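Among the tumors left out in turn, the first KO s1 tumor moved the estimates of the 7 tested members most, as given in the report. The log2 fold changes of the members kept their sign under every alternative run. The number of members called higher was 1 under re-centring by the median and 0 to 1 when a tumor was left out, and that member was *H2-DMa*, with a log2 fold change of 0.82 (adjusted p = 0.0479, limma) under re-centring and 0.41 to 0.96 when a tumor was left out. It was called without KO s1 tumor 1, 2 or 4 (adjusted p = 0.0315, 0.0432 and 0.0405, limma). Under the other alternatives 0 members were called. The number of genes of the other pathway lists called lower was 4 without a filter and 2 to 7 when a tumor was left out. Genes other than the members changed sign when a tumor was left out: *H2-DMb2* (-0.13 to 0.78), *Tcf3* (-0.031 to 0.10), *Mif* (-0.19 to 0.21), *Cd86* (-0.27 to 0.37), *Cd274* (-0.036 to 0.78), *Rps18* (-0.045 to 0.12) and *Nlrc5* (-0.079 to 0.60). For *H2-DMb2*, *Cd86*, *Cd274* and *Nlrc5* that tumor was the first KO s1 tumor. *Mif* was 0.012 under quantile normalization. The cause was not tested. Tumors of the same replicate number did not deviate together (r of -0.059 to 0.057 over genes), and they came from different mice. With the replicate number as a block 0 members were called and 2477 genes were higher and 2688 lower. Genes with few reads, *H2-Oa* above all, are limited by depth.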

Other observations

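The second scr tumor had the highest level of its group for *Cd74*, *H2-Aa*, *H2-Ab1*, *H2-Eb1*, *H2-DMa* and *H2-Ea*, at 4.89 log2 CPM for *H2-Aa* and 5.19 for *H2-Ea*, while *Ciita* (1.47) and *H2-DMb1* (1.77) were highest in the fourth. *Ifng* had 0 reads in all 4 scr tumors, so it does not set the second apart. The 12 genes of the interferon gamma induced list were divided within the scr group. *Cxcl9*, *Gbp4*, *Irgm1*, *Cd274*, *Ido1* and *Serpina3g* were highest in the second scr tumor, with 24 reads of *Cxcl9* against 13, 7 and 8. *Gbp2*, *Gbp6*, *Cxcl10*, *Iigp1*, *Igtp* and *Irgm2* were highest in the first, with *Gbp2* at 2.83 log2 CPM against 2.35 in the second. These differences were not tested.

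*Prdm1*, which represses *Ciita* in plasma cells, was at 4.77 log2 CPM in the first KO s1 tumor, where *Ciita* was highest. In the other 3 KO s1 tumors it was at 2.94 to 3.08, below the 4.09 to 4.52 of the scr tumors. Its log2 fold change was -0.86 (SE 0.34, adjusted p = 0.064, limma) with all tumors and -1.30 (adjusted p = 5.97e-05, limma) without that tumor. *Ifngr1*, a chain of the interferon gamma receptor, rose by 0.75 (SE 0.10, adjusted p = 1.71e-04, limma) and was between 6.49 and 6.72 log2 CPM in all 4 KO s1 tumors. *Prdm1* was chosen for mention after its values had been seen.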
